A study of Mus musculus with 24 samples.

Results

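Brain and liver transcriptomes of wild-type (WT) mice were compared, using the 3 brain and the 3 liver samples whose labels gave the wild type genotype, 6 of the 24 samples of the series. The other 18 samples, 9 from each tissue, came from mice homozygous for the deletion of tRNA-Phe-3-1, of tRNA-Phe-1-1 or of tRNA-Phe-2-1, genes for the transfer RNA that carries phenylalanine to the ribosome. WT animals were male C57BL/6N mice on normal chow, matched to the mutants by age and litter, and carried no deletion, and their age is not given in the labels. Total RNA came from snap-frozen brain and liver tissue, with no brain region or liver lobe named. The study compared genotypes within each tissue, so the comparison of the WT tissues gives the background on which each deletion acts.

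The liver makes most plasma proteins, clears amino acids, ammonia and drugs, forms bile and releases glucose between meals, and most of its RNA comes from hepatocytes. The brain holds neurons, which signal through ion channels, vesicle release and transmitter receptors, with oligodendrocytes that make myelin, astrocytes that take up glutamate, and microglia. Phenylalanine is an essential amino acid that the liver converts to tyrosine, whereas neurons use tyrosine to make dopamine.

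Levels are given as CPM, the reads of a gene scaled to a fixed library total of 1000000 reads. A gene was called higher in a tissue at an adjusted p under 0.05 (limma on log2(CPM + 0.5), Benjamini-Hochberg over all genes tested) with a log2 difference of at least 1. Differences are log2 of brain over liver, so positive values mean higher in brain, and the added 0.5 CPM understates the change of low genes. Replicates are named A, B and C. The labels do not name the animals, so p-values measure the spread between these samples. Tissue cannot be told apart from anything done to the libraries of 1 tissue alone, and fewer cells of a type cannot be told apart from less RNA per cell.

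The start sites of the genes that differed most are shown first, because they are where transcription of these genes begins. The windows below run from 250 bases before to 50 bases after the start (RefSeq, GRCm38.p6), 5′ to 3′ on the strand of the gene, with CG dinucleotides in capitals. Alb, Apob and Ahsg encode albumin, apolipoprotein B and fetuin-A, which hepatocytes secrete into the blood, and were the 3 genes furthest toward liver.
Alb (chr5:90460620-90460919, plus strand): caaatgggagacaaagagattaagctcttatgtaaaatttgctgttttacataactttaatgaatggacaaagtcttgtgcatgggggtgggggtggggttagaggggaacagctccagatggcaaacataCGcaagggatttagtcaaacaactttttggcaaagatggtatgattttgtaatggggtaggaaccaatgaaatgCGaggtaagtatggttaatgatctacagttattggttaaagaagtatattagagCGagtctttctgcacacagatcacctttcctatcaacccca
Apob (chr12:7977427-7977726, plus strand): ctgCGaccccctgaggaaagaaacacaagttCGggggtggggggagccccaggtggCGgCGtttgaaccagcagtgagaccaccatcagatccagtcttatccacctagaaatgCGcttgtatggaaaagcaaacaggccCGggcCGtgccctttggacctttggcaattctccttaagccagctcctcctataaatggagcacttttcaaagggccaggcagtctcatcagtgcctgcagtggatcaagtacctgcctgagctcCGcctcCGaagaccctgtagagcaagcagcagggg
Ahsg (chr16:22891765-22892064, plus strand): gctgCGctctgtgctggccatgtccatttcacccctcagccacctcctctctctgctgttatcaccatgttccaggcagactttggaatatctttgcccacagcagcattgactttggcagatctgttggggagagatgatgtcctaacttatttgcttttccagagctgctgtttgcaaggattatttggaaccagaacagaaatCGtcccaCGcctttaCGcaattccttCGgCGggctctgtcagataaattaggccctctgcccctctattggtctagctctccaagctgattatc
Ndrg4, Slc24a2 and Gria2 stood furthest toward brain among the genes with a window. Slc24a2 encodes an exchanger of sodium for calcium and potassium, and Gria2 an AMPA-type glutamate receptor subunit.
Ndrg4 (chr8:95676724-95677023, plus strand): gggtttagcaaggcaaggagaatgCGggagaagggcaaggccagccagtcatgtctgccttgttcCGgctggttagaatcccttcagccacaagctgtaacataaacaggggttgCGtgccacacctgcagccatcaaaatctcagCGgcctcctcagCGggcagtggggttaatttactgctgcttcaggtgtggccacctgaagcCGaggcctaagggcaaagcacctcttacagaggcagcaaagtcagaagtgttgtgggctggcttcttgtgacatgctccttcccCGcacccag
Slc24a2 (chr4:87230491-87230790, minus strand): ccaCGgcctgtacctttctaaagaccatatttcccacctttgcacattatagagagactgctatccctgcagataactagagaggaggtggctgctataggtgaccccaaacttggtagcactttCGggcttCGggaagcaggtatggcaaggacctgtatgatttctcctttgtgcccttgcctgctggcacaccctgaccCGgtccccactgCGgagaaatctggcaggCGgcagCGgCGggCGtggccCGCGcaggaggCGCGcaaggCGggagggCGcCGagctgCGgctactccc
Gria2 (chr3:80802786-80803085, minus strand): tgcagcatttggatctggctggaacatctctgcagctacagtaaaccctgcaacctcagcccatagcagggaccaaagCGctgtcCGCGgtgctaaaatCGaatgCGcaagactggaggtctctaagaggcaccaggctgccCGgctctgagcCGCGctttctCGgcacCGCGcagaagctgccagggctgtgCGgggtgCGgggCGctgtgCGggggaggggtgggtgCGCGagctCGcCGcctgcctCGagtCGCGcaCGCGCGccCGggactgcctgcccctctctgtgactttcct
The liver windows held 3 (Alb), 9 (Apob) and 6 (Ahsg) CG dinucleotides, and the brain windows held 7 (Ndrg4), 17 (Slc24a2) and 26 (Gria2). Over all 27025 windows of the reference table the median was 7, with quartiles of 3 and 21. These 6 windows describe these genes, and no test of promoters by tissue was made because the table held a window for only 77.6% of the 14643 protein-coding genes tested, under the 80% needed.

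The brain libraries held 31500167 to 40239308 reads with 25827 to 26729 genes detected, and the liver libraries 32276896 to 43736333 reads with 21367 to 21903 genes detected. Liver RNA was far more concentrated in a few genes. The most abundant genes that together held 50% of the reads numbered 717, 662 and 702 in the brain libraries and 84, 73 and 80 in the liver libraries (exact permutation test, two-sided, p = 0.1, the smallest that 3 against 3 allows). The 10 most abundant entries took 19.6% ± 0.468 of the reads in brain and 29.8% ± 0.623 in liver (SD, n = 3). Entries whose identifier matched no gene name took 13.5% to 14.2% of brain reads and 15.5% to 16.6% of liver reads, and some of them ranked among the 5 highest of both tissues. Mitochondrially encoded RNA took a like share, 5.43% ± 0.259 in brain and 5.27% ± 0.590 in liver (exact permutation p = 0.8). Long non-coding RNA took 2.58% ± 0.0404 of brain reads and 1.22% ± 0.101 of liver reads (exact permutation p = 0.1).

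**Figure D1:**
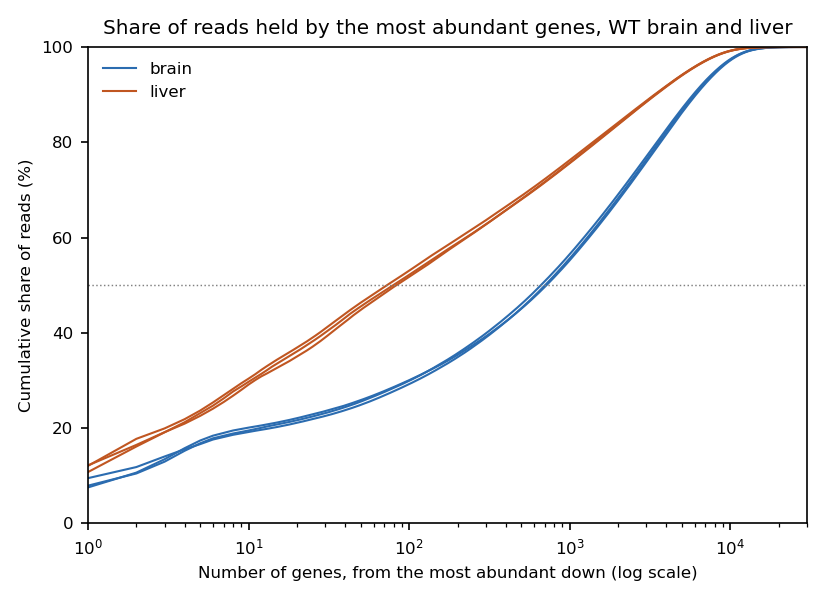
Cumulative share of reads (y axis, percent) held by the most abundant genes, ranked along a log x axis, with a line for each of the 6 WT libraries. The liver lines reach 50% of the reads at 73 to 84 genes and the brain lines at 662 to 717 genes.

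Of 17871 genes tested, 11529 (64.5%) were called, 8777 (49.1%) of them higher in brain and 2752 (15.4%) higher in liver. The median difference over all genes was +0.97. The uneven make-up of liver RNA bears on this split, because CPM shares sum to a fixed total in each library. With edgeR's TMM factors, which scale on the bulk of genes, 5857 of 17631 genes (33.2%) were higher in brain and 4291 (24.3%) in liver (57.6% in either direction), the median difference was +0.16, and the differences moved toward liver by a median of 0.78 on the log2 scale. The share of calls that were higher in brain was 76.1% with CPM and 57.7% with TMM. A total of 5857 brain calls and 2752 liver calls held under both scalings. Differences of 8-fold or more were seen for 3190 genes (17.9%) toward brain and 1093 genes (6.12%) toward liver. Among the genes called higher in brain, 1137 (12.95%) had no read in any liver library, and among those called higher in liver, 131 (4.76%) had none in any brain library.

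The genes furthest toward liver encode secreted proteins. Alb, the main protein of plasma, was at 42932, 56687 and 53636 CPM in the 3 livers and at 18.2, 6.24 and 3.94 CPM in the 3 brains, a difference of -12.59 ± 0.47 (SE, adjusted p = 7.7e-08). Apob, the protein of low-density lipoprotein particles, was at 14993, 15199 and 14337 CPM in liver and 8.30, 1.77 and 1.40 CPM in brain (-12.11 ± 0.52 SE, adjusted p = 1.8e-07). Ahsg was at 4818, 6491 and 6158 CPM in liver and 2.36, 0.783 and 0.349 CPM in brain (-11.95 ± 0.40 SE, adjusted p = 4.2e-08). No liver value of these 3 genes came near a brain value, and brain replicate A held the highest brain value of each. The protease inhibitors Serpina1e (-11.84), Serpina3k (-11.79), Serpina1c (-11.63) and Serpina1b (-11.63) followed with the vitamin D binding protein Gc (-11.68). The Serpina1 genes are near-identical copies, so the division of reads between them is uncertain.

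Several of the genes furthest toward brain act at the synapse or in axonal transport. Snap25 (chr2:136713439-136782428, GRCm38.p6), a SNARE protein of synaptic vesicle fusion, was at 1679, 1845 and 1773 CPM in brain and 0.0457, 0 and 0 CPM in liver (+11.74 ± 0.08 SE, adjusted p = 4.1e-10). Gria2 was at 974, 1047 and 1034 CPM in brain and 0 in all 3 libraries of liver, at least 40404-fold higher when 3 reads over the liver group are taken as the limit. Slc24a2 was at 895, 1156 and 1111 CPM in brain and 0 in all 3 libraries of liver, at least 41821-fold higher by the same limit. The groups lay apart for all 3 genes. Ndrg4 (+11.17), the microtubule-associated kinase Dclk1 (+10.69), the axonal transport motor Kif1a (+10.56), the NMDA receptor subunit Grin2a (+10.48) and the prohormone-processing carboxypeptidase Cpe (+10.47) made up the rest of the 8 largest differences.

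Low levels of the other tissue's genes were measured in every library. For the 82 genes of at least 500 CPM in liver and a log2 difference of at least 9 in size, the brain level was a median of 0.0555% of the liver level in brain replicate A, 0.0185% in B and 0.0156% in C. For the 40 matching brain genes, the liver level was a median of 0.00778%, 0.00879% and 0.0177% of the brain level, with 9 to 11 of the 40 genes at 0. By this median brain replicate A held the most liver transcript, and the part of such traces in the lowest values of either tissue was not tested. The log2 limit of 9 itself caps the other tissue's level of each gene chosen. These medians therefore compare libraries and do not measure all such transcripts.

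Liver gene groups were called almost without exception. All 38 plasma protein genes were higher in liver (median -10.15, against +0.97 over all genes), and none was higher in brain. Of 40 complement and coagulation genes, 37 were higher in liver (median -8.60), led by C3, the central complement component (-11.52), and the fibrinogen chains Fgb (-11.51) and Fga (-11.44). The other 3 were the C1q chains C1qa, C1qb and C1qc, named here after their values were seen, and C1q is known as a product of macrophages and microglia rather than hepatocytes. C1qa was at 33.7, 30.02 and 31.5 CPM in brain and 28.5, 27.02 and 23.8 CPM in liver (+0.26, and -0.58 with TMM). All 21 genes of bile acid synthesis and transport were higher in liver (median -7.77), including the bile salt export pump Abcb11 (-10.08), the bile acid ligase Slc27a5 (-9.61) and the organic anion transporter Slco1a1 (-9.45).

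Of 34 tested cytochrome P450 genes of families 1 to 3, which oxidise drugs and steroids, 31 were higher in liver (median -7.73). Cyp3a11 was at 2356, 4676 and 4594 CPM in liver and 1.57, 0.435 and 0.413 CPM in brain. Cyp2e1 (-10.38) and Cyp2c29 (-10.23) followed. Cyp2s1 (+2.25) and Cyp1b1 were higher in brain, the latter not with TMM (+0.93). Members of the Cyp2c, Cyp2d and Cyp3a clusters share reads, so single values in them are uncertain.

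Neuronal gene groups lay as plainly on the side of brain, with every tested member called in 5 lists. All 24 pan-neuronal genes were higher in brain (median +8.05), led after Snap25 by the kinesin Kif5a (+10.39) and the neuronal enolase Eno2 (+10.18). The 24 glutamate receptor subunit genes (median +6.75) included the metabotropic receptor Grm5 (+9.49). The 14 tested GABA receptor genes (median +7.55), whose products carry inhibition, included Gabrb2 (+8.87). The 15 tested synaptotagmins, most of them calcium sensors or adaptors of vesicle fusion (median +6.96), were led by Syt13 (+8.57) and Syt4 (+8.47). All 23 voltage-gated channel genes were higher in brain as well (median +7.64), among them the sodium channel Scn1a (+9.45).

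The GABA-A subunit Gabra6, a marker of cerebellar granule cells, did not pass the filter on low values, with 1.09, 0.0580 and 1.02 CPM in brain. The transporters that load glutamate and GABA into vesicles were present in every brain. Slc17a7, the cortical glutamate transporter of vesicles, was at 388, 650.4 and 591 CPM in brain and 0, 0.0465 and 0.0310 CPM in liver. Slc17a6, its counterpart in thalamus and brainstem, was at 108, 18.8 and 35.2 CPM in brain, and Slc32a1, which loads GABA, at 29.9, 28.6 and 24.1 CPM. Replicate A had the highest Slc17a6 of the 3 brains.

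**Figure D2:**
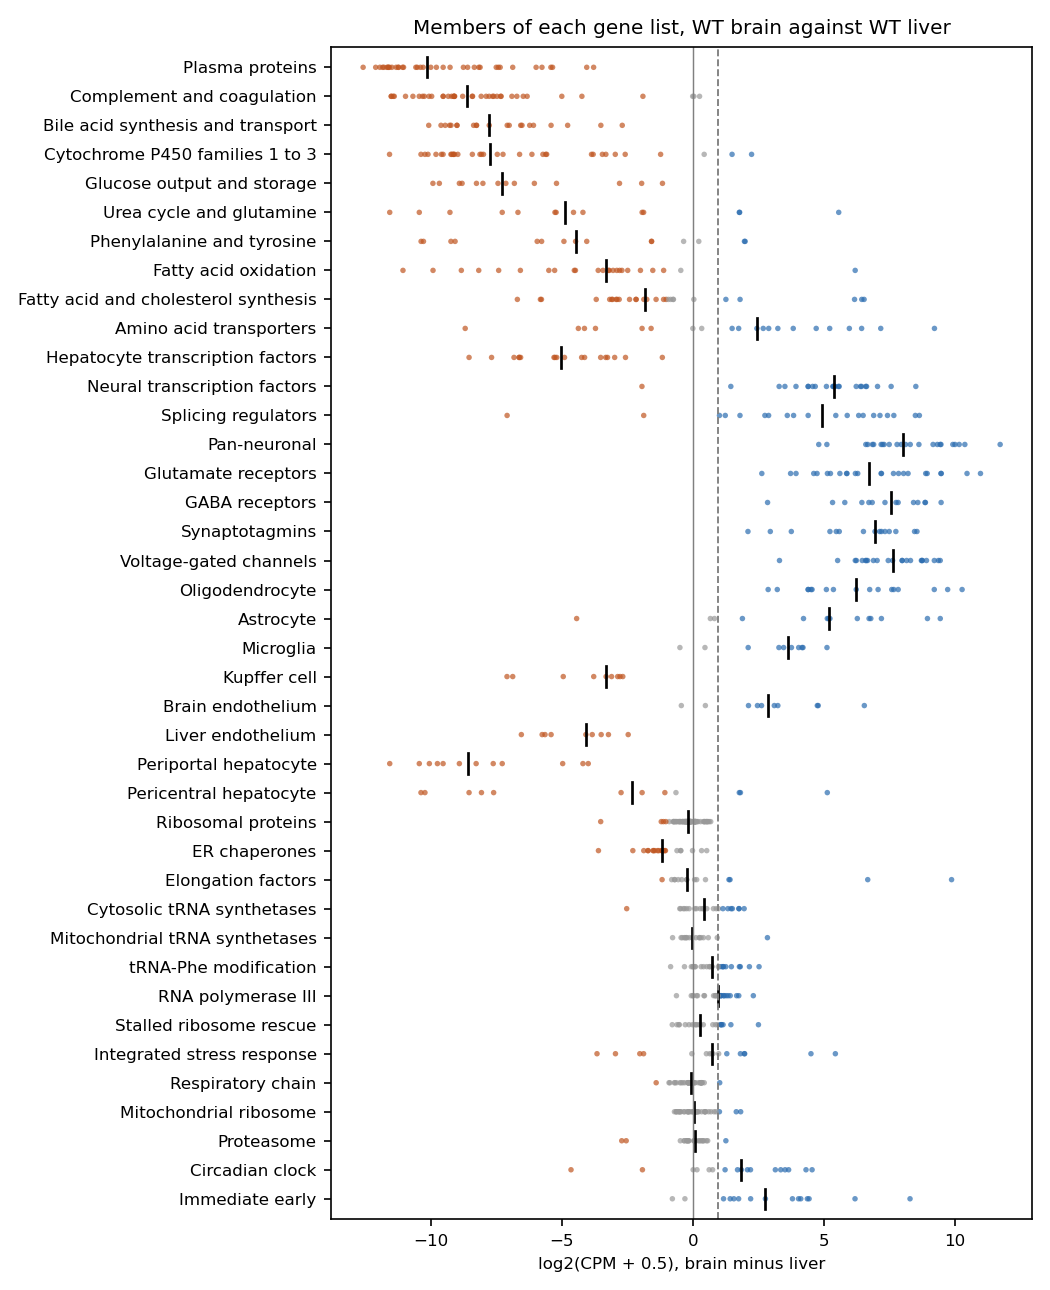
Log2 difference of brain over liver (x axis) for the tested members of 40 gene lists (rows), with a point for each gene (blue where called higher in brain, orange in liver, grey where not called), a black bar at the median of the list and a dashed line at the median of all tested genes. Liver lists sit to the left and neuronal lists to the right, while the medians of ribosomal protein, respiratory chain and proteasome genes lie near 0 with CPM and lower with TMM.

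Transcription factors followed the same division. All 18 hepatocyte transcription factors were higher in liver (median -5.05), among them the nuclear receptor Hnf4a, at 438, 418 and 447 CPM in liver and 0.522, 1.97 and 0.127 CPM in brain, the metabolic regulator Creb3l3 (-7.68) and the xenobiotic receptor Nr1i3 (-6.83). Of 24 neural transcription factors, 23 were higher in brain (median +5.39), led by Myt1l (+8.52), Pou3f3 (+7.58) and Mef2c (+7.06). The exception was Rest, a repressor of neuronal genes outside the nervous system, at 10.7, 7.48 and 9.14 CPM in brain and 35.6, 32.1 and 40.6 CPM in liver (-1.94 ± 0.15 SE, adjusted p = 5.5e-06).

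Splicing regulators showed a parallel split. Of 20 tested, 18 were higher in brain (median +4.94), among them Rbfox1 (+8.66), Celf4 (+8.50) and the neuronal Hu protein Elavl3 (+7.68). The 2 called higher in liver were the epithelial regulator Esrp2 (-7.09) and Ptbp1 (-1.87), a repressor of neuronal exons. Ptbp1 was at 20.2, 14.2 and 15.8 CPM in brain and 62.8, 53.1 and 71.4 CPM in liver, whereas its neuronal relative Ptbp2 was at 123, 122 and 115 CPM in brain and 14.8, 16.9 and 20.8 CPM in liver. On the scale of CPM per kilobase of transcript, Ptbp2 made up 83.4% to 87.6% of the sum of both genes in brain and 16.3% to 20.8% in liver.

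Markers of oligodendrocytes, astrocytes and neurons were present in brain. All 17 oligodendrocyte genes were higher in brain (median +6.25). Of 14 astrocyte genes, 11 were higher in brain (median +5.22), including the glutamate transporter Slc1a3 (+8.97). The astrocyte gene Aldh1l1, which encodes an enzyme of folate metabolism, was at 70.2, 56.8 and 59.6 CPM in brain and 1130.4, 1369 and 1585 CPM in liver (-4.43), so it went against its list. All 10 excitatory neuron genes and 11 of 12 inhibitory neuron genes were higher in brain. The last of them, Reln, a secreted guide of neuronal migration, was at 182, 149 and 159 CPM in brain and 158, 139.98 and 164 CPM in liver (+0.08, and -0.77 with TMM).

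Markers of resident macrophages and of endothelial cells divided by tissue. Of 10 microglia genes, 8 were higher in brain (median +3.62), with the purinergic receptor P2ry12 at 29.3, 28.9 and 28.03 CPM in brain and 1.17, 1.05 and 1.15 CPM in liver. All 9 Kupffer cell genes were higher in liver (median -3.31), with the lectin Clec4f at 77.1, 67.2 and 60.1 CPM in liver and 0 in all 3 libraries in brain. Csf1r, a receptor that both macrophage types use, was at 62.7, 76.6 and 60.9 CPM in brain and 47.1, 42.9 and 54.1 CPM in liver (+0.47, and -0.38 with TMM) and was not called. Of 10 brain endothelium genes, 8 were higher in brain (median +2.87), led by the thyroxine transporter Slco1c1 (+6.56). Beside the microglia and brain endothelium counts, 49.1% of all genes were higher in brain, with a median of +0.97. All 9 liver sinusoidal endothelium genes were higher in liver (median -4.08), led by the scavenger receptor Stab2 (-6.55). Of 11 stellate cell and cholangiocyte genes, 8 were tested, 4 were higher in liver, among them the retinol acyltransferase Lrat (-4.90), and 1 was higher in brain (Cftr, +1.84). The cholangiocyte markers Krt7, Krt19 and Epcam did not pass the filter on low values.

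Of 6 tested erythroid genes, Alas2, the haem synthesis enzyme of red cell precursors, was the only member called (-3.54, higher in liver). Summed over the list, erythroid genes were at 448 to 797 CPM in brain and 463 to 613 CPM in liver, ranges that overlapped. Reads of the alpha-globin copies cannot be separated.

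Liver zonation genes were not all higher in liver. All 12 periportal genes were higher in liver (median -8.59), led by the urea cycle enzymes Cps1 (-11.57) and Arg1 (-10.44) and the antibody transporter Pigr (-10.06). Of 12 pericentral genes, 8 were higher in liver and 3 in brain. Glul, which makes glutamine from ammonia and glutamate in pericentral hepatocytes and in astrocytes, was at 1429, 1269 and 1278 CPM in brain and 644, 250.1 and 354 CPM in liver (+1.78 ± 0.30 SE, adjusted p = 7.3e-04). The glutamate transporter Slc1a2 was at 2239, 3106 and 2543 CPM in brain and 94.5, 64.02 and 65.2 CPM in liver, and the Wnt target Axin2 differed by +1.82 in the same direction, a call lost with edgeR (+0.88) and DESeq2 (+0.90). With TMM, Glul was at +0.92 and was no longer called.

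Enzymes of glucose handling differed in form as well as in level. All 14 genes of glucose output and storage were higher in liver (median -7.29). Fbp1, which removes a phosphate on the way to glucose, was at 815, 928 and 866 CPM in liver and 0.820, 0.116 and 0.381 CPM in brain, and the gluconeogenic enzyme Pck1 differed by -8.91. Of 36 pairs of related genes that carry out the same step, 18 had the first member called higher in brain and the second in liver, 8 had both called higher in brain, and 1 (Tars1 and Tars3, threonyl-tRNA synthetases) went the reverse way. In 24 pairs the first gene held most of the pair's CPM per kilobase in brain and the second in liver, and in 1 pair (Tars1 and Tars3) the reverse held. Without division by transcript length, a setting chosen after seeing the data, the 24 became 25. When the pairs were listed, with earlier results of these data known, the first gene was the brain candidate and the second the liver candidate. The direction of these counts was thus largely set by the choice of pairs. They do not measure how often related genes differ in this way.

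Hexokinase Hk1 was at 211, 285 and 272 CPM in brain and 3.70, 4.56 and 3.01 CPM in liver. Per kilobase, pyruvate kinase was Pkm in brain (at least 99.99% of the pair) and mostly Pklr in liver (Pkm 6.89% to 16.6%). The glucose transporter Slc2a3, of high affinity, held 99.8% to 99.9% of its pair with Slc2a2 in brain and 0.186% to 1.10% in liver. Lactate dehydrogenase was less divided in brain, where Ldhb held 57.8% to 65.8% of the pair with Ldha, than in liver, where Ldhb held 0.170% to 0.362%. Ldha itself (-1.07) was not called without brain replicate A (-0.99).

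**Figure D3:**
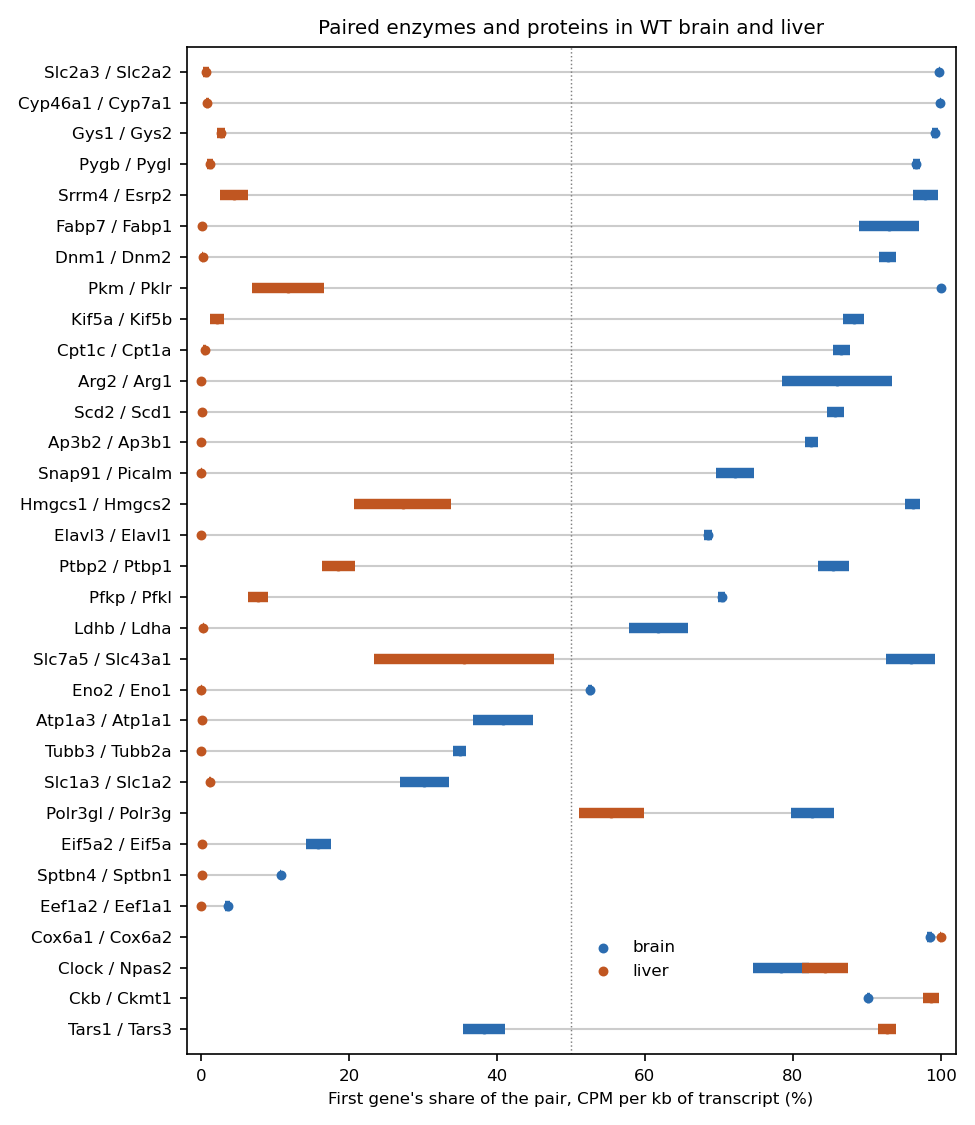
Share of the first gene in the summed CPM per kilobase of 32 of the 36 gene pairs (x axis, percent; rows are pairs), with a bar from the lowest to the highest of the 3 WT libraries of brain (blue) and of liver (orange) and a dot at the middle of that range. The first gene of each pair was listed as the brain candidate and the second as the liver candidate. In 21 of the pairs drawn the first gene holds most of the pair in brain and the second in liver. Eef1a2 holds at most 3.88% of its pair in brain per kilobase and at most 23.6% by CPM, since its transcript is taken as 13742 nt long.

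Nitrogen handling followed the same lines. Of 14 urea cycle and glutamine genes, 11 were higher in liver and 3 in brain (median -4.89). Cps1, which fixes ammonia, was at 5011, 6901 and 7999 CPM in liver and 2.58, 1.04 and 1.56 CPM in brain. Arg1 (-10.44) and its relative Arg2 (+1.79) went in opposite directions.

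Lipid genes were divided. Of 24 fatty acid oxidation genes, 22 were higher in liver (median -3.32), led by the fatty acid binding protein Fabp1 (-11.07). The exception called higher in brain was Cpt1c, the neuronal carnitine palmitoyltransferase, at 67.6, 69.00 and 73.1 CPM in brain and 0.617, 0.279 and 0.496 CPM in liver. Of 28 fatty acid and cholesterol synthesis genes, 18 were higher in liver and 5 in brain (median -1.81). The desaturase Scd1, which makes oleate, was at 16345, 13088 and 15737 CPM in liver and 167, 142 and 125 CPM in brain, whereas Scd2 was at 996, 933 and 909 CPM in brain and 8.73, 15.6 and 14.4 CPM in liver. Sterol hydroxylation was divided between Cyp46a1 in brain (+6.46), which forms the cholesterol product that leaves the brain, and Cyp7a1 in liver (-7.77), the rate-limiting enzyme of bile acid synthesis. The elongase Elovl4, which makes very long chains, was higher in brain (+6.55), and Elovl2 was higher in liver (-5.78).

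Genes that break down phenylalanine and tyrosine were higher in liver, and genes that start transmitter synthesis from aromatic amino acids higher in brain. Of 15 tested genes, 11 were higher in liver and 2 in brain (median -4.47). Those higher in liver included Tat (-10.38), Hpd (-10.28) and Hgd (-9.23), enzymes of successive steps of tyrosine breakdown. Genes that also serve transmitter synthesis were among them. These were Ddc (-4.47), which acts after Th and Tph2, and Gch1 (-5.94) and Spr (-1.57), which make their cofactor. The 2 genes higher in brain were Th (+2.00) and Tph2 (+1.98), which start the synthesis of dopamine and serotonin. Th was low in every brain, at 2.46, 1.65 and 0.762 CPM, and so was Tph2, at 1.79, 0.812 and 2.03 CPM. Tph2 was no longer called when 2 CPM was added in place of 0.5 CPM (+0.81).

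Of 21 tested amino acid transporters, 13 were higher in brain and 6 in liver with CPM (median +2.45). With TMM the counts were 11 and 6 (median +1.87). Over all genes, 49.1% and 15.4% were higher in brain and in liver with CPM, and 33.2% and 24.3% with TMM. Slc7a5, which carries phenylalanine and other large neutral amino acids across the blood-brain barrier, was at 18.7, 21.8 and 19.9 CPM in brain and 1.65, 1.91 and 1.46 CPM in liver (+3.25 ± 0.12 SE, adjusted p = 8.9e-08). Slc43a1, another carrier of these amino acids, was higher in liver (-1.93). The neuronal transporters Slc6a17 (+9.23) and Slc6a15 (+6.45) and the cystine carrier Slc7a11 (+7.18) stood furthest toward brain, and Slc38a4 (-8.69), Slc38a3 (-4.37) and the cationic carrier Slc7a2 (-4.13) furthest toward liver.

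For genes of the translation machinery, the number called depended on the scaling. Of 81 tested cytosolic ribosomal protein genes, 4 were higher in liver and none in brain with CPM (median -0.17), and 41 were higher in liver with TMM (median -1.01). The largest difference was Rps27l (-3.51), at 6.73, 3.77 and 5.02 CPM in brain and 69.1, 64.4 and 55.8 CPM in liver. Of 22 endoplasmic reticulum chaperone and translocation genes, which serve secreted proteins, 16 were higher in liver and none in brain (median -1.18), and 19 with TMM (median -2.03). P4hb, a disulfide isomerase, was at 90.5, 79.2 and 77.8 CPM in brain and 1119, 925 and 977 CPM in liver (-3.60 ± 0.10 SE, adjusted p = 1.2e-08).

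Elongation factor 1 alpha differed by form. Eef1a2, the neuronal and muscle form of the factor that brings aminoacyl-tRNA to the ribosome, was at 459, 504 and 487 CPM in brain and 0, 0 and 0.0310 CPM in liver (+9.89 ± 0.09 SE, adjusted p = 4.3e-10). The general form Eef1a1 was at 1798, 1631 and 1654 CPM in brain and 3834, 3857 and 3735 CPM in liver (-1.17 ± 0.07 SE, adjusted p = 9.4e-07). Eef1a2 had at most 1 read in a liver library, and in brain it held 20.3% to 23.6% of the CPM of the pair. Per kilobase that share was 3.22% to 3.88%, because the canonical transcript used for Eef1a2 is 13742 nt long and that of Eef1a1 1794 nt. Eif5a2 (+6.69) was higher in brain as well, and its general form Eif5a was not called (-0.23, and -1.08 with TMM, where it was called higher in liver). Of the 15 elongation factor genes, 4 were higher in brain and 1 in liver with CPM (median -0.23), and 2 and 8 with TMM (median -1.08).

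The phenylalanyl-tRNA synthetase, which loads tRNA-Phe, was not called in either direction. Its catalytic subunit gene Farsa (chr8:84856969-84869257, GRCm38.p6) was at 30.7, 26.02 and 27.8 CPM in brain and 18.2, 14.2 and 15.9 CPM in liver (+0.79 ± 0.11 SE, adjusted p = 2.9e-04 with CPM and -0.04 with TMM). Its partner subunit gene Farsb (chr1:78417958-78488897, GRCm38.p6) was at 40.98, 38.7 and 39.7 CPM in brain and 29.9, 24.95 and 27.1 CPM in liver (+0.54 with CPM and -0.30 with TMM). The mitochondrial synthetase Fars2 was at 18.8, 17.3 and 20.3 CPM in brain and 23.3, 23.9 and 22.00 CPM in liver (-0.29, and -1.12 with TMM, where it was called higher in liver). Groups of the first 2 genes did not overlap in CPM, but the differences were under the minimum of 1 and their sign turned with the scaling.

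Of 23 cytosolic tRNA synthetase genes, 7 were higher in brain and 1 in liver with CPM (median +0.41), against 1 and 6 with TMM (median -0.43). For all genes the shares were 49.1% and 15.4% with CPM (median +0.97), and 33.2% and 24.3% with TMM (median +0.16). The list's share higher in brain was therefore below that of all genes with either scaling. Tars1, which loads threonine, was the gene higher in liver, at 33.9, 28.02 and 34.8 CPM in brain and 195, 183 and 183 CPM in liver (-2.52 ± 0.10 SE, adjusted p = 9.1e-08), whereas its relative Tars3 was higher in brain (+1.76, and +0.93 with TMM). Per kilobase, Tars1 held 35.4% to 41.01% of the pair in brain and 91.6% to 93.9% in liver. Wars1, which loads tryptophan, differed by +1.96 (+1.12 with TMM). Of 17 mitochondrial tRNA synthetase genes, 1 was higher in brain with CPM (Mars2, +2.85) and none in liver (median -0.03), and 1 and 6 with TMM (median -0.86).

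RNA polymerase III makes tRNA, and of 25 genes of the polymerase and its factors 11 were higher in brain and none in liver with CPM (median +0.96), against 1 and 1 with TMM (median +0.15). This share is near the 49.1% of all genes that were higher in brain. Of 25 tRNA-Phe processing and modification genes, 10 were higher in brain and none in liver with CPM (median +0.73), against 3 and 2 with TMM (median -0.11). Wdr6, a partner in the 2′-O-methylation of the anticodon loop, was at 117, 80.3 and 112 CPM in brain and 18.1, 15.7 and 17.8 CPM in liver (+2.53 ± 0.15 SE, adjusted p = 1.2e-06). Dus3l, a dihydrouridine synthase, differed by +2.17, and Tyw3, of the wybutosine pathway that modifies the base beside the anticodon of tRNA-Phe, by +1.82, a call that Tyw3 lost with edgeR (+0.94) and DESeq2 (+0.96). Of the 22 genes of stalled ribosome rescue, 6 were higher in brain and none in liver with CPM (median +0.27), against 1 and 5 with TMM (median -0.55). Gtpbp1, a rescue GTPase, was at 42.97, 45.4 and 38.95 CPM in brain and 17.5, 13.3 and 14.8 CPM in liver (+1.46, and +0.62 with TMM). All of these medians lay below the +0.97 of all genes with CPM, and below the +0.16 of all genes with TMM.

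Nuclear genes of the respiratory chain (39 genes, median -0.08), the mitochondrial ribosome (40 genes, median +0.06) and the proteasome (26 genes, median +0.07) were nearly level with CPM. With TMM, 16, 14 and 10 of them were called higher in liver and none in brain. The immunoproteasome subunits Psmb8 (-2.54) and Psmb9 (-2.71) were the 2 proteasome genes called higher in liver with CPM, and Psmb8 was at 2.41, 1.86 and 2.13 CPM in brain and 15.5, 13.7 and 15.1 CPM in liver. In the respiratory chain list, Sdhd of complex II was called higher in liver (-1.40) and Cox8a of complex IV higher in brain (+1.03, and +0.18 with TMM).

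The proteins encoded by the transcriptomes differed in phenylalanine. Weighting each nuclear protein-coding gene by its reads, phenylalanine made up 3.70%, 3.70% and 3.71% of the encoded residues in the brain libraries and 4.20% to 4.21% in the liver libraries (means 3.70% and 4.20%). The groups lay far apart compared with their spread (SD 0.00415 and 0.00752 percentage points, exact permutation p = 0.1, the smallest possible). Weighting by reads per transcript length times the number of residues gave 3.58% and 4.23%. Without the protein-coding genes that were among the 10 most abundant entries of either tissue the values were 3.70% and 4.14%. Other entries among those 10 were mitochondrial or unmatched and had no weight here, so this left out only a few genes. Relative to brain, the liver value was 13.5% higher, the second largest relative difference of the 20 residues after cysteine, which was 13.8% higher. Arginine and serine changed most in the other direction, by -10.5% and -9.87%.

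Albumin RNA alone held 7.58% of the phenylalanine codon weight of liver. Serpina1e encodes 25 phenylalanines among 413 residues (6.05%), Apob 230 among 4505 (5.11%) and Alb 29 among 608 (4.77%). Among genes at least 8-fold higher in liver, 993 with a protein sequence, the median phenylalanine content was 4.34%, compared with 3.61% for the 2740 at least 8-fold higher in brain and 3.61% over all tested genes. Of the phenylalanine codons, TTC, which pairs exactly with the GAA anticodon of tRNA-Phe, made up 55.6% ± 0.250 in brain and 55.6% ± 0.187 in liver (SD, n = 3, exact permutation p = 0.7, two-sided). In the knockout lines, with 9 libraries for each tissue, phenylalanine made up 3.68% to 3.72% of residues in brain and 4.11% to 4.24% in liver, so no value of brain reached those of liver. The TTC share in these libraries was 55.6% ± 0.178 in brain and 54.6% ± 0.454 in liver (SD, n = 9, exact permutation p = 8.2e-05, two-sided), with ranges of 55.3% to 55.8% and 54.0% to 55.3% that overlapped in part. Whether the TTC difference itself differed between WT and knockout libraries was not tested.

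**Figure D4:**
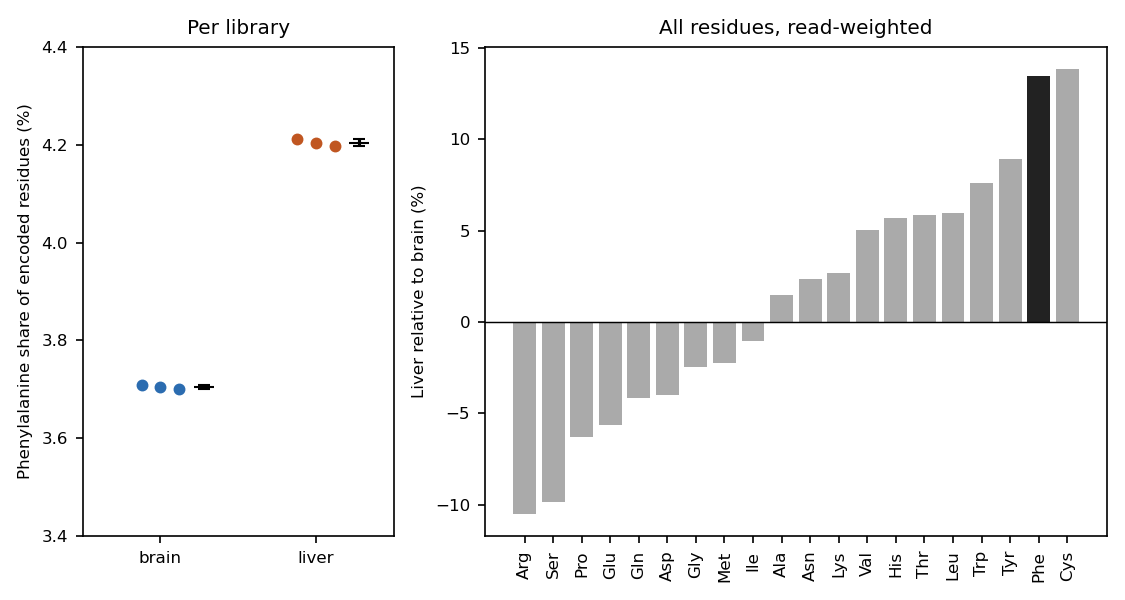
Left, phenylalanine as a percent of encoded residues (y axis, not from 0) in each WT library of brain and liver, with the mean and SD beside the points. Right, bars of the difference of liver relative to brain (y axis, percent) for each of the 20 residues (x axis), where cysteine at 13.8% and phenylalanine at 13.5% lead and arginine at -10.5% is lowest.

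The genes called in each direction differed in length too. Protein-coding genes at least 8-fold higher in brain had a median genomic span of 43348.5 bp, with 30.9% over 100 kb, and those at least 8-fold higher in liver had 18820 bp, with 6.46% over 100 kb. Over all tested protein-coding genes the median was 25079 bp, with 15.5% over 100 kb. Spans were those of RefSeq for GRCm38.p6 and were found for 97.4% of the genes.

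The knockout libraries share no sample with the WT libraries and gave the tissue comparison again. Of 17934 genes tested in them, 8920 (49.7%) were higher in brain and 2611 (14.6%) in liver, 64.3% in either direction. The calls shared with WT numbered 8261 toward brain, 94.1% of the WT calls and 92.6% of the knockout calls, and 2462 toward liver, 89.5% and 94.3%. No gene was called in opposite directions. Alb differed by -13.53 and Snap25 by +11.51 in these libraries.

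Within each tissue the WT replicates were close, with a few marked exceptions. Among genes with a mean of at least 10 CPM, the median SD of log2 levels was 0.109 over 9609 genes in brain and 0.111 over 7148 genes in liver. An SD above 1 was seen for 17 genes in brain and 39 in liver. In brain, Ttr, which the choroid plexus secretes, was at 173, 13.3 and 340.4 CPM, and the striatal adenosine receptor gene Adora2a was at 28.9, 30.1 and 2.89 CPM. Replicate C was lowest for Adora2a and highest for Ttr. The mitochondrial leucyl-tRNA synthetase Lars2 was at 17.05, 173 and 15.5 CPM, high in replicate B.

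Summed over their lists, striatal genes were at 683, 861 and 243 CPM and choroid plexus genes at 508, 237 and 721 CPM in brain replicates A, B and C. All 11 tested striatal genes were called higher in brain, but Adora2a was not called without brain replicate A (+2.40) or B (+2.37). Of 12 cortical and hippocampal genes, 11 were higher in brain (median +5.32), among them Neurod6 at 42.2, 50.3 and 56.7 CPM. Of 13 cerebellar genes, 10 were tested, 8 were higher in brain and 1 in liver (median +3.45). Itpr1, a calcium channel of intracellular stores, was at 1021, 1343 and 1106 CPM in brain. Car8 was the gene higher in liver (-2.16), and Cbln3 was not called (+0.41). Pcp2, of Purkinje cells, did not pass the filter on low values at 0.422, 0 and 0.952 CPM, nor did Gabra6 or Barhl2. How much cerebellum each brain sample held was not tested. Of 12 hypothalamic peptide and regulator genes, 3 passed the filter on low values.

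In liver the most variable genes were major urinary proteins, which males secrete, and a steroid hydroxylase. Mup7 was at 4066, 59.8 and 48.95 CPM, Mup15 at 443, 3.09 and 0.248 CPM and Cyp2a4 at 0.183, 82.7 and 38.5 CPM. Replicate A was high for both Mup genes and low for Cyp2a4. Mup genes are near-identical copies and share reads. Mup7 was called higher in liver (-7.42 ± 1.60 SE, adjusted p = 0.0027) and Mup15 was not (-4.05, adjusted p = 0.099 by limma). Without liver replicate A, 8877 genes were called higher in brain and 2704 higher in liver.

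**Figure D5:**
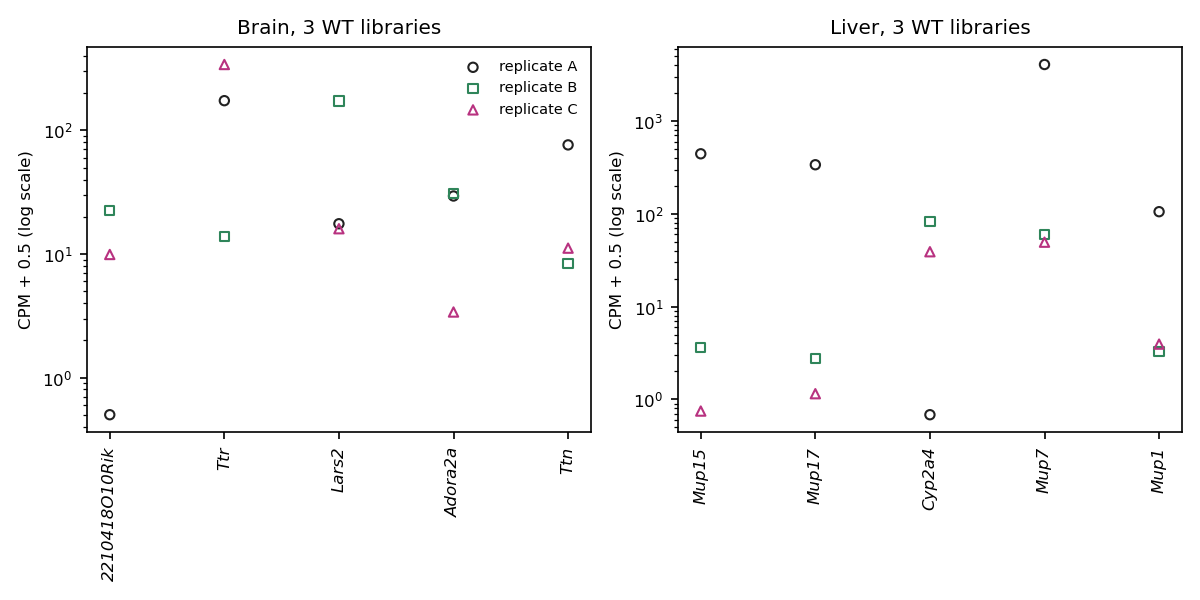
Levels (log y axis, CPM + 0.5) of the 5 genes with the largest SD of log2 levels over the 3 WT replicates, among genes with a mean of at least 10 CPM, in brain (left) and in liver (right), with a point for each replicate. Ttr in brain spans 13.3 to 340.4 CPM and Mup7 in liver spans 49.0 to 4066 CPM.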

How the data were processed

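RNA of the brain and liver samples was sequenced as TruSeq libraries on a NovaSeq instrument. Per the study's methods and the submitters' processing notes, the authors trimmed reads with Trim Galore (cutadapt, with FastQC), aligned them with STAR to GRCm38.p6, estimated transcripts with Salmon and normalised gene counts with DESeq2 in each tissue separately. The deposited values are a signal, estimated read counts divided by a size factor per sample, by the authors. Every value was a whole multiple of a step (100% within a tolerance of 0.001), so whole reads were recovered, and each column was rescaled to CPM, which undoes the size factor. Division of reads between near-identical genes was left as the authors made it. The authors' tables of fold changes, errors and s-values were not used.

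Genes with a mean of at least 0.5 CPM over the 6 WT samples were tested with limma 3.58.1 in R 4.3.3 (log2(CPM + 0.5), tissue as the only term, variance trend, two-sided), and called at an adjusted p under 0.05 with a log2 difference of at least 1. The 18 knockout samples were fitted likewise with genotype as a term. TMM scaling (edgeR 4.0.16), other scalings, pseudocounts and filters, no variance trend, all 24 samples in the fit, edgeR and DESeq2 1.42.0 on recovered reads, a replicate block and each library left out were alternatives. Levels of different genes were compared per kilobase of the Ensembl canonical transcript. No replicates agreed within sampling noise. Counts were also simulated for all 6 libraries from the liver means with the real depths. There the procedure recovered 186 of 189 changed genes with 0 false calls among 14304 tested. The spread between libraries was set by a dispersion of 0.0265. How far recovery depends on the size of a change or on the spread of a gene was not tested. These simulated counts lacked the difference in make-up between brain and liver RNA, so they cannot judge the choice of scaling. Symbols, gene types, transcripts and proteins came from GENCODE vM39 and matched 93.2% of 55434 Ensembl identifiers, and unmatched entries were left unnamed. Gene coordinates came from RefSeq on GRCm38.p6.

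The members, gene lists and pairs were chosen with earlier results of these data known. Genes named in the text were the 8 largest differences in each direction with at least 50 CPM in the higher tissue, the 3 largest called members of each list in each direction, all genes of the pairs, cell type, region and zonation markers, the 3 largest long non-coding RNAs in each direction (at least 5 CPM), the 5 most variable genes of each tissue (at least 10 CPM), the 5 most abundant, and Farsa, Farsb, Fars2 and the tRNA-Phe modification genes. Some genes that this rule names are not reported here. Values after ± are standard errors of the limma fit where marked SE and SDs over libraries elsewhere. Floors cover counting error only.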

Additional observations from a re-analysis of the deposited data

How the results depend on the processing

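The alternatives were fixed with earlier results of these data known. Higher-in-liver calls, 2752 with CPM, numbered 4291 with TMM, 4263 with median-of-ratios scaling, 4620 with edgeR and 4547 with DESeq2 on recovered reads. Requiring a log2 difference of at least 3 left 3190 calls toward brain and 1093 toward liver. Leaving out 1 library at a time gave 8408 to 8942 calls toward brain and 2675 to 2816 toward liver. Small differences changed sign with those 4 settings, in the order TMM, median-of-ratios, edgeR and DESeq2: -0.58, -0.57, -0.64 and -0.62 for C1qa, -0.38, -0.37, -0.43 and -0.40 for Csf1r, -0.77, -0.76, -0.82 and -0.80 for Reln, -0.044, -0.033, -0.099 and -0.074 for Farsa and -0.30, -0.29, -0.36 and -0.34 for Farsb. List medians that changed sign were -0.43, -0.42, -0.49 and -0.47 for cytosolic tRNA synthetases, -0.11, -0.095, -0.16 and -0.14 for tRNA-Phe modification, -0.55, -0.54, -0.63 and -0.60 for stalled ribosome rescue, -0.066, -0.054, -0.099 and -0.073 for the integrated stress response, -0.77, -0.76, -0.84 and -0.81 for the mitochondrial ribosome and -0.78, -0.76, -0.83 and -0.81 for the proteasome. With CPM taken without mitochondrial entries and the 10 most abundant genes of either tissue, Reln was at -0.17, the mitochondrial ribosome median at -0.18 and the proteasome median at -0.18. Leaving out single libraries took Reln from -0.0011 (without brain replicate A) to 0.14 and the mitochondrial ribosome median from -0.023 (without brain replicate A) to 0.11. It took the mitochondrial tRNA synthetase median, -0.03, from -0.056 to 0.17, positive without brain replicate A (0.057), brain replicate C or liver replicate B (0.0091). The phenylalanine difference, 0.50 percentage points, was 0.65 with weights per transcript length and number of residues. It was 0.44 without the protein-coding genes among the 10 most abundant entries of either tissue, and 0.496 to 0.503 without single libraries. The TTC difference of 0.07 percentage points, within the spread, became -0.18 and -0.22 under the same changes and -0.05 to 0.20 without single libraries. The mitochondrial share was 6.45% in brain and 7.43% in liver when the 10 most abundant nuclear genes of either tissue left the denominator. The cause of these changes was not tested, beyond what each scaling does by construction. Of 2509 values of 140 named genes under the alternatives, 2439 kept their direction and their side of the threshold. Calls lost under edgeR or DESeq2 included Glul, Axin2, Tyw3 and Tars3. The labels do not say whether libraries of the same letter came from the same animal, and these values cannot decide it. The correlation of deviations was 0.04, 0.03 and -0.01 for same-letter libraries and -0.05 to 0.02 for different letters. Brain replicates A and B correlated best with the liver library of their own letter, and C did not. With a replicate block 8784 genes were called higher in brain and 2762 in liver, with 1 named gene gaining a call (Mup15) and none losing one. The depth of 31500167 to 43736333 reads puts 3 reads of a library at a level of 0.0686 to 0.0952 CPM, so smaller differences from 0 were not detectable. In the exact permutation tests of single values, 3 against 3 cannot give a p under 0.1.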

Other observations

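Of 17 clock genes, 11 were higher in brain and 2 in liver with CPM (median +1.86), and 9 and 2 with TMM (median +1.01), where 49.1% and 15.4% of all genes were higher in brain and in liver with CPM and 33.2% and 24.3% with TMM. Dbp, an output gene of the clock, was at 46.5, 34.6 and 40.4 CPM in brain and 1.58, 0.674 and 1.61 CPM in liver, and the core repressor Per1 differed by +3.66. Nfil3 (-1.92), a repressor of the clock output, was among those higher in liver. The time of collection is not given in the labels, and its part in these values was not tested. Of 15 immediate early genes, 13 were higher in brain and none in liver with CPM (median +2.78), and 8 and 1 with TMM (median +2.26). Arc, a synaptic gene induced by firing, was at 214, 113 and 318 CPM in brain and 0.0229, 0.163 and 0.217 CPM in liver, and Egr3 (+6.20) and Nr4a1 (+4.45) followed.

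Of 16 genes of the integrated stress response, 6 were higher in brain and 4 in liver with CPM (median +0.75). With TMM the counts were 4 and 4 (median -0.07). Among all genes, 49.1% were higher in brain and 15.4% in liver with CPM, and 33.2% and 24.3% with TMM. Counts in so short a list say little beside these shares. The serine synthesis enzymes led the brain side. Phgdh, the first enzyme of that route, was at 53.8, 45.6 and 46.6 CPM in brain and 0.114, 1.56 and 0.620 CPM in liver, and Psat1 differed by +4.52. The mitochondrial enzyme Shmt2, which turns serine into glycine, was at 7.70, 9.86 and 8.54 CPM in brain and 113, 112 and 119.8 CPM in liver (-3.66), and the translation repressor Eif4ebp1 was higher in liver as well (-2.95).

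Of 1179 long non-coding RNA genes tested, 623 were higher in brain and 188 in liver, shares near the 49.1% and 15.4% of all genes. The maternally expressed RNA Meg3 was at 1938, 1758 and 1747 CPM in brain and 0.777, 0.814 and 0.806 CPM in liver, and Miat (+9.86) and Rian (+9.68) followed. Gm29966 (-9.80), BC024386 (-8.09) and 1810008I18Rik (-8.03) stood furthest toward liver.

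Sex-linked genes were measured against the label of male mice. The Y-linked gene Ddx3y was at 63.7 to 86.2 CPM in brain and 71.2 to 73.01 CPM in liver. Xist, which marks the inactive X chromosome of females, was at 0 to 0.464 CPM in brain and 0.116 to 0.341 CPM in liver.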
